A study of Rattus norvegicus with 12 samples.

Results

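The comparison set 3 arrays of rat small hepatocytes plated on laminin-111 (group LN111) against 3 arrays of the same kind of cells plated on Matrigel (group Mat), chosen by their labels as 6 of the 12 arrays of the study. Small hepatocytes are proliferating liver cells with features of hepatic progenitors. Per the labels, the cells of both groups came from livers of F344 rats, were selected with magnetic beads on day 9 of culture as positive for CD44, were cultured on Matrigel, and at passage 2 were put on dishes coated with laminin-111 or Matrigel for 3 h. The medium of both groups was serum-free and held 10 ng/mL epidermal growth factor (EGF) and 10 mM nicotinamide, with dexamethasone and insulin. All cells had thus been in contact with Matrigel before the 3 h, and another coating, laminin-511 (group LN511), had 3 arrays of its own. The remaining 3 arrays were of mature hepatocytes (MH) from fresh livers. Whether replicates were separate cultures or animals is not stated in the labels. The p-values therefore reflect variation among these particular samples, and that variation could be technical.

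Laminins are trimers of an alpha, a beta and a gamma chain and form, with type IV collagen, nidogen and perlecan, the sheet of basement membranes. Cells bind them through integrins and dystroglycan, and these receptors link the matrix to the actin skeleton through talin, kindlin and integrin-linked kinase. Matrigel is a basement membrane extract of a mouse tumour in which laminin-111 is the main protein, beside type IV collagen, nidogen, perlecan and bound growth factors. The comparison therefore asks which transcripts differ between cells on the purified laminin and cells on the extract that holds it.

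Each single-colour Agilent array received Cy3-labelled material made from 100 ng of total RNA. Levels are log2 ratios of a gene's processed signal to the array's 75th percentile (the scaled signal), so a gene at 0 lies at the 75th percentile of its array, and a difference of 1 is 2-fold. On the 6 arrays the 75th percentile of processed signal ran from 1340 to 3090, 55.9% to 62.7% of spots were well above background and no spot was saturated. The array of LN111 replicate 3 stood apart. Its median coefficient of variation over repeated probes was 11.1%, against 3.16% to 3.68% on the other 5 arrays, and it had 1126 outlier spots against 376 to 415. All 3 LN111 arrays lay on the second slide, with Mat replicate 3, and Mat replicates 1 and 2 lay on the first. For most of the gene lists with members at an unadjusted p under 0.05, results without LN111 replicate 3 and within the second slide are given beside the reported ones.

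The arrays did not fall apart by coating. The 3 LN111 arrays correlated with each other at Pearson's r of 0.952 to 0.957 over all genes tested, whereas LN111 replicate 1 correlated with Mat replicates 1 and 3 at 0.984 and 0.985, and LN111 replicate 2 with Mat replicate 2 at 0.983. Mat replicates 1 and 3 were the most alike pair, at 0.994. The spread of their difference over the brighter genes, a median absolute deviation scaled to an SD, was 0.12 log2 units. It lay above the spread of 0.0585 to 0.0636 that the repeated spots of these arrays give for a difference of spots. That comparison covers spot noise only and does not show whether they came from separate cultures. They were counted as separate samples, as labelled, and with the 2 averaged into 1 sample the comparison of LN111 with Mat again called 0 genes and 5.26% of genes were higher and 3.03% lower at an unadjusted p under 0.05. The first principal component of the 9 cultured arrays (53.1% of variance) set the LN511 arrays at 42.3 to 104, the Mat arrays at -37.2 to 19.2 and the LN111 arrays at -78.1 to -4.73.

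**Figure D1:**
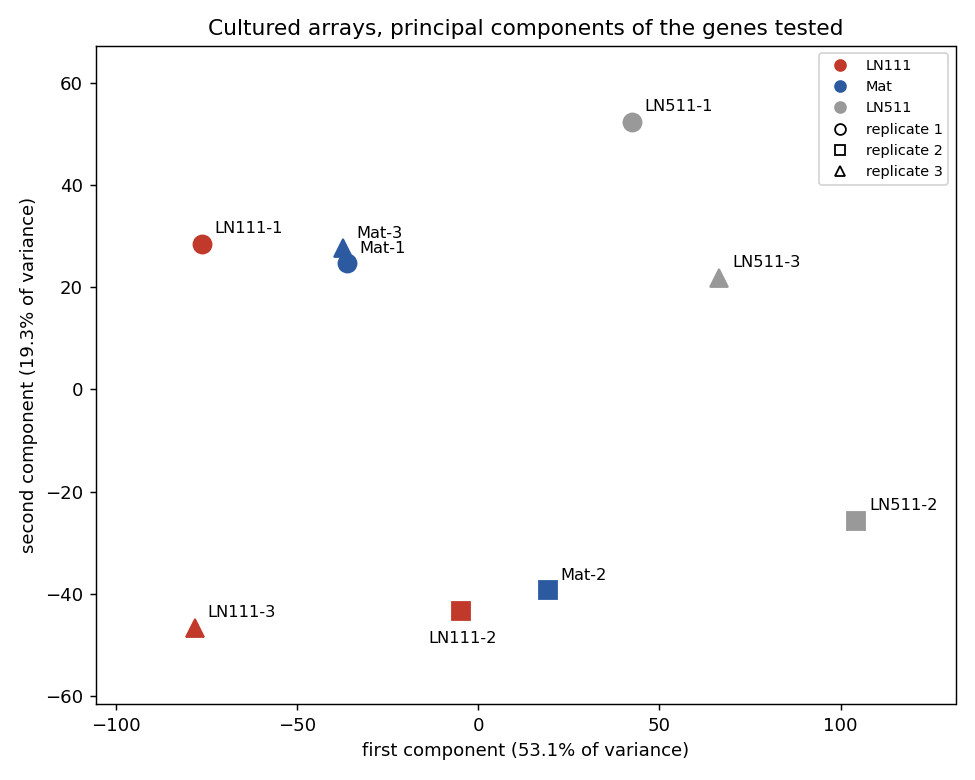
Principal component scores of the 9 cultured arrays over the genes tested, with 1 point for each array, coloured by coating and shaped by replicate number. The LN111 and Mat arrays overlap on both axes, LN111 replicate 2 lies nearest to Mat replicate 2, and the LN511 arrays lie at the positive end of the first component.

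The cells of both groups carried the transcripts that define the label. Cd44, the hyaluronan receptor used for the sort, was at 2.84, 2.70 and 2.96 on the LN111 arrays and at 2.73, 2.89 and 2.72 on the Mat arrays. Alb, serum albumin, was at 5.75, 5.69 and 6.12 on LN111 and at 5.53, 5.29 and 5.87 on Mat. For both genes the groups overlapped and the difference was small: 0.05 for Cd44 (95% interval -0.31 to 0.42) and 0.29 for Alb (-0.18 to 0.76). The other probe of Alb gave -0.13, and the 3 probes of Cd44 gave 0.05 to 0.25. Afp, the fetal plasma protein, was at 5.47, 2.41 and 3.36 on LN111 and at 6.23, 3.78 and 6.40 on Mat. Its SD within a coating (1.56 on LN111 and 1.46 on Mat, n = 3 each) was close to the difference of -1.72, whose interval was -4.50 to 1.06. Of 48 plasma protein genes, 44 were well above background on all 3 LN111 arrays and 45 on all 3 Mat arrays. Of 29 progenitor and biliary markers, 23 were so in each group.

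Of 17932 genes tested in limma over the 9 cultured arrays, 0% (0 genes) passed a Benjamini-Hochberg adjusted p of 0.05 between LN111 and Mat. The smallest adjusted p was 0.0950, of a dim gene with a placeholder name. At an unadjusted p under 0.05, 2183 genes stood out (12.2%), of which 1317 were higher on LN111 (7.34% of genes tested) and 866 lower (4.83%). All 3 LN111 arrays lay above all 3 Mat arrays for 1727 genes (9.63%) and below them for 1466 (8.18%). An exact permutation test of 3 against 3 arrays cannot give a two-sided p below 0.1. Directions in the following paragraphs are therefore measured differences that did not pass the test over all genes. With slide as a block the test again called 0 genes, and 519 reached an unadjusted p under 0.05. Within the second slide Mat had a single array, and signal on that array alone was enough for a gene to be tested. That filter admits genes seen only on the Mat array, such as Pramel38l1 at -5.01. Genes passing the adjusted threshold in that setting are therefore not counted. At an unadjusted p under 0.05, 4.26% of genes were higher and 2.86% lower without LN111 replicate 3, and 1.41% higher and 2.15% lower within the second slide. Counts of list members in these settings are to be read against those shares.

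The intervals show what was held equal. For 11768 genes (65.6%) the 95% interval of the difference lay within 2-fold in both directions, and for 5871 (32.7%) it lay within 1.5-fold. With slide as a block, 8784 of the 17932 genes tested were held within 2-fold. Among the 4665 genes whose mean level was above the 75th percentile of the arrays, 3734 (80%) were held within 2-fold. For 6164 genes (34.4%) the interval reached past 2-fold, so equality was not shown for them. The whole interval lay beyond 2-fold for 12 genes higher on LN111 and 8 lower. The median SD of a gene was 0.31 on LN111 and 0.20 on Mat, and the median standard error of a difference was 0.22. These shares are given by level as well. Among the 3587 dimmest genes tested 39.3% were held within 2-fold and 12.2% were higher on LN111 at an unadjusted p under 0.05, against 81.5% and 4.13% among the 3587 brightest.

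Among the genes of smallest p, the 12 that were higher on LN111 were Angpt4, Gpx3, Ogdhl, Lsp1, Fmo1, Tnnc1, Aqp1, Cspg4, C8h3orf18, Ndrg4, Map1a and Inka2, and their adjusted p in limma was 0.318 for Angpt4 and 0.323 for the others. Angpt4, an angiopoietin that binds the Tie2 receptor, was at -3.82, -3.46 and -3.28 on LN111 and at -5.91, -5.47 and -5.26 on Mat. The difference was 2.03 (SE 0.31, 95% interval 1.32 to 2.73). For all 12 genes the rule that chose them required every LN111 array to lie above every Mat array. Gpx3, the secreted glutathione peroxidase, was at 2.18, 2.21 and 2.70 on LN111 and at 0.90, 0.44 and 1.11 on Mat (difference 1.55, interval 0.99 to 2.11).

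Cspg4, the NG2 proteoglycan of pericytes and mural cells, was at 1.30, 1.47 and 1.64 on LN111 and at 0.19, 0.15 and 0.09 on Mat. Its difference was 1.33 (SE 0.23), with an SD of 0.17 on LN111 and 0.05 on Mat (n = 3 each). A choice by smallest p favours genes with such small spreads.

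Aqp1, a water channel, was at 2.23, 2.04 and 2.35 on LN111 and at 1.11, 1.45 and 1.15 on Mat, a difference of 0.97 that its other probe repeated at 1.11. Map1a, a microtubule-associated protein, differed by 1.59, Ogdhl, an isoform of the oxoglutarate dehydrogenase subunit, by 1.27 and Tnnc1, a troponin C, by 1.36, with signal well above background on 1 of 3 Mat arrays. Fmo1, a flavin monooxygenase, was well above background on the LN111 arrays and on none of the Mat arrays, and was at least 2.34-fold higher on LN111. That bound compares the LN111 mean with the dimmest signal that counts as well above background on the Mat arrays. Lsp1, an F-actin binding protein, differed by 1.02, Inka2, an inhibitor of the kinase PAK4, by 0.98, and Ndrg4 by 0.66. The interval of C8h3orf18 was 0.88 to 2.12.

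The 12 genes of smallest p that were lower on LN111 were Otud1, Ano9, Zbed4, Spns2, Epn3, Mex3a, Fam169a, Flrt3, Lrrc2, Edn1, Tgfa and Kcnq1, with an adjusted p in limma of 0.308 for Otud1 and 0.323 for the others. Otud1, a deubiquitinase, was at -2.19, -2.18 and -2.19 on LN111 and at -0.89, -1.05 and -1.17 on Mat (difference -1.15, SE 0.16, interval -1.51 to -0.79). Spns2, the transporter that releases sphingosine-1-phosphate, was at 1.11, 1.27 and 0.75 on LN111 and at 2.13, 2.06 and 2.21 on Mat (difference -1.09), and its other probe gave -0.83. In both genes every LN111 array lay below every Mat array, as the rule that chose the 12 genes required.

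Edn1, the precursor of endothelin-1, was at -5.27, -4.63 and -3.77 on LN111 and at -2.57, -2.28 and -2.76 on Mat, a difference of -2.02. Tgfa, a ligand of the EGF receptor, was at -2.91, -3.23 and -3.84 on LN111 and at -2.05, -2.19 and -2.18 on Mat, a difference of -1.19. The probes of Tgfa did not agree, since another of its 3 probes gave 0.17. Kcnq1, a potassium channel, had the widest gap of the 12, at -4.03, -3.43 and -4.58 on LN111 and at -1.20, -2.21 and -1.38 on Mat (difference -2.42, interval -3.55 to -1.29). Flrt3, a transmembrane adhesion protein, differed by -1.97, Epn3, an epsin of endocytosis, by -1.45, Mex3a, an RNA-binding protein, by -1.04 and Zbed4 by -0.91. Ano9, Fam169a and Lrrc2 were not well above background on any LN111 array and were at least 1.31-fold, 1.23-fold and 1.81-fold lower there.

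**Figure D2:**
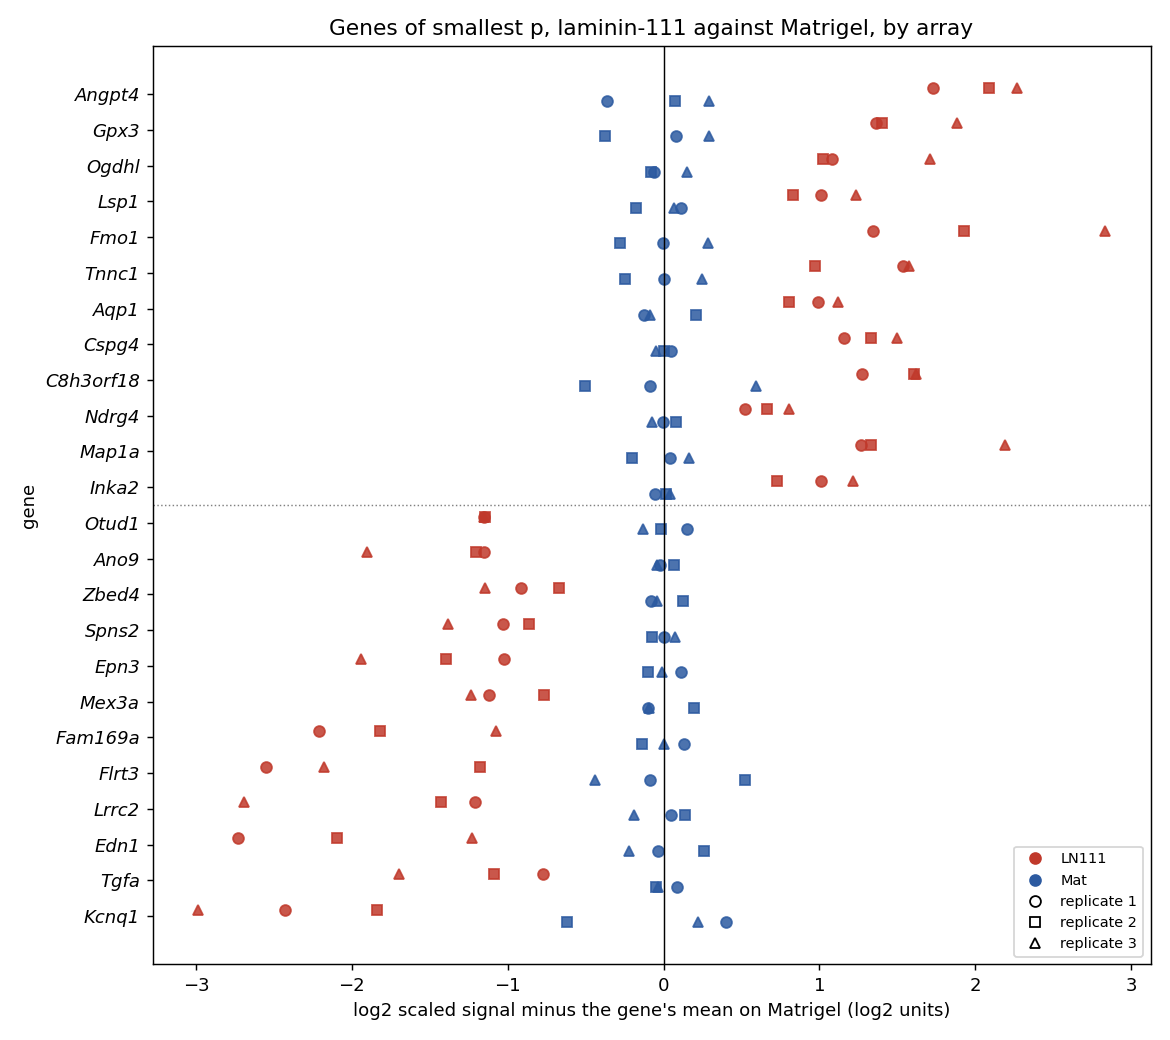
Log2 scaled signal of the 24 genes of smallest p on each LN111 and Mat array, minus the gene's mean on Matrigel, with shapes for the replicate numbers. The upper 12 genes have every LN111 array to the right of every Mat array and the lower 12 have every LN111 array to the left, as the rule that chose them required. The LN111 points of Otud1 coincide, and those of Lrrc2 and Flrt3 are spread widely.

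Extracellular matrix genes were higher on LN111 as a group, although none passed the test over all genes. Of 17 interstitial matrix genes tested (of 21 listed), 7 were higher at an unadjusted p under 0.05 and 0 lower, against 7.34% and 4.83% of all genes, and the median difference was 1.05 against 0.01 for all genes. All 3 LN111 arrays lay above all Mat arrays for 9 of the 17 and below them for 1, against 9.63% and 8.18% of all genes. Over the 27 settings, among them signal required on all 9 arrays, the median ran from 0.45 to 1.44. Col5a1, a chain of type V collagen, was at 2.26, 2.17 and 3.40 on LN111 and at 1.63, 1.16 and 1.59 on Mat (difference 1.15, SE 0.33). Fbn1, fibrillin-1 of microfibrils, was at -2.34, -2.45 and -1.20 on LN111 and at -3.17, -3.74 and -3.41 on Mat (difference 1.44, SE 0.42). In both genes LN111 replicate 3 was the highest array and the groups did not overlap. Col5a2, the partner chain of Col5a1, differed by 1.00 and Loxl2, a lysyl oxidase that cross-links collagen, by 1.45. Without LN111 replicate 3, 4 of 18 genes tested were higher at an unadjusted p under 0.05 (median 0.73), and within the second slide 1 of 18 (median 0.74).

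Basement membrane proteins other than laminins showed the same direction. Of 11 tested, 6 were higher and 1 lower at an unadjusted p under 0.05, against 7.34% and 4.83% of all genes. Their median was 0.78, and the lower gene was Agrn, the proteoglycan agrin, at -0.87. Nid1, nidogen, which joins laminin to type IV collagen, was at -0.19, -0.03 and 0.66 on LN111 and at -1.04, -1.70 and -1.07 on Mat (difference 1.42). Sparc, a collagen-binding matrix protein, was at 6.12, 5.81 and 6.74 on LN111 and at 5.30, 4.48 and 5.42 on Mat (difference 1.16). The LN111 values lay above the Mat values in both genes, with LN111 replicate 3 again highest. Pxdn, the peroxidase that cross-links type IV collagen, differed by 0.78 and Fbln1, fibulin-1, by 0.98. Only 1 of the 11 was higher at an unadjusted p under 0.05 without LN111 replicate 3, with a median of 0.55, and within the second slide 0, with a median of 0.81.

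The laminin chains themselves did not move as a group. Of 7 tested, 1 was higher and 0 lower at an unadjusted p under 0.05, against 7.34% and 4.83% of all genes. Their median was -0.16, and the interval of 1 gene lay within 2-fold, against 65.6% of all genes. Lamb1, the beta chain of laminin-111, was at 2.14, 2.23 and 2.92 on LN111 and at 1.47, 1.62 and 1.47 on Mat (difference 0.91, SE 0.23), with no overlap. The gamma chain gene Lamc1 differed by -0.16 and the alpha-5 chain gene Lama5 by -0.20.

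Markers of stellate cells and fibroblasts, the matrix-making cells of the liver, were higher on the same arrays as the matrix genes. Of 20 tested, 7 were higher and 0 lower at an unadjusted p under 0.05, against 7.34% and 4.83% of all genes. Their median was 1.17, and 8 had all LN111 arrays above all Mat arrays, against 9.63% of all genes. Acta2, smooth muscle actin of activated stellate cells, was at -0.89, 0.04 and 0.64 on LN111 and at -1.75, -1.72 and -1.77 on Mat (difference 1.68, SE 0.39). Its Mat values were nearly the same, and its LN111 values ranged over more than a log2 unit. Tagln, an actin-binding protein of smooth muscle, differed by 1.33, Ecm1 by 1.14 and Thy1, a surface protein of fibroblasts and of hepatic progenitors, by 0.97. Summed over 24 markers, the scaled signal was 122 to 209 times the 75th percentile on LN111 and 75.6 to 89.8 times on Mat, and Gfap, a marker of quiescent stellate cells, was well above background on no array. Without LN111 replicate 3, 2 of 20 were higher at an unadjusted p under 0.05 (median 0.80), and within the second slide 2 of 22 (median 0.73). The lists share Col1a1, Col1a2, Col3a1, Dcn and Postn, and the part of these cells in the matrix result was not tested. In bulk RNA, fewer cells of a type and less RNA per cell cannot be told apart.

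Markers of other non-parenchymal cells were mostly dim. Of 12 endothelial markers tested, 2 were higher on LN111 and 0 lower at an unadjusted p under 0.05, against 7.34% and 4.83% of all genes. Their median was 0.96. Cdh5, the endothelial cadherin, differed by 0.93 and Tek, the Tie2 receptor, by 0.98, with signal well above background on 1 of 3 Mat arrays, while 6 of 19 endothelial markers on the array, Pecam1, Tie1, Lyve1, Plvap, Emcn and Oit3, were well above background on no array of either group. For 11 Kupffer cell and macrophage markers the median was 1.01, with 0 past an unadjusted p of 0.05 and 6 with no overlap, all higher. Among all genes, 9.63% had every LN111 array above every Mat array. The defining Kupffer markers Clec4f, Cd163, Marco, Timd4, Cd5l, Adgre1 and Mrc1 were well above background on no array. Summed scaled signal was 2.33 to 6.75 on LN111 and 1.56 to 3.49 on Mat for the endothelial list, and 1.77 to 3.18 and 1.15 to 1.71 for the Kupffer list. The medians without LN111 replicate 3 were 0.68 over 12 endothelial and 0.91 over 12 Kupffer markers tested, and within the second slide 0.78 and 0.94, with 0 endothelial markers past an unadjusted p of 0.05. Some members were tested because of signal on the arrays of 1 coating only. With signal required on all 9 arrays, 5 endothelial markers had a median of 0.60 and 4 Kupffer markers one of 0.68. Genes too dim to be tested also lay higher on LN111 after scaling, with a median of 0.36 over 17918. The median was 0.13 over the 3587 dimmest genes tested and 0.01 over the 3587 brightest. The 75th percentile subtracted came from signals of 2150, 1740 and 1340 on LN111 and 2960, 3090 and 1920 on Mat. Whether this scaling lifted dim signal on LN111, these marker lists included, was not tested.

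For 11 mesothelial markers the median was -0.10, and Podxl, a sialomucin of podocytes and mesothelium, differed by -0.90.

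Genes of epithelial junctions were lower on LN111. Of 27 genes of adherens and tight junctions, all tested, 10 were lower at an unadjusted p under 0.05 and 0 higher. The shares of all genes were 4.83% and 7.34%. The median of the 27 was -0.57, and 9 had all LN111 arrays below all Mat arrays, against 8.18% of all genes. Cdh1, E-cadherin, was at 2.39, 2.97 and 1.74 on LN111 and at 3.20, 3.57 and 3.24 on Mat (difference -0.97, SE 0.30). Ocln, occludin, a membrane protein of tight junctions, was at 0.10, 0.46 and -0.62 on LN111 and at 0.78, 0.90 and 0.90 on Mat (difference -0.88, SE 0.26). Cgn, cingulin, a tight junction protein bound to actomyosin, was at 0.22, -0.0083 and -0.92 on LN111 and at 0.86, 0.58 and 0.84 on Mat (difference -0.99, SE 0.29). In all 3 genes the groups did not overlap and LN111 replicate 3 was the lowest array. Pkp2, a desmosome protein that also joins adherens junctions, differed by -0.83. The count of lower genes was 6 of 27 without LN111 replicate 3 (median -0.40), and within the second slide 2 of 27 (median -0.41). The intervals of 6 of the 27 lay within 2-fold, against 65.6% of all genes.

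The promoters of 4 of these genes are printed here, because matrix and junction genes were the lists whose members lay on opposite sides. From each list the 2 members of smallest p with a single promoter entry were taken. The sequences are the 250 bases before the gene's start, 5′ to 3′ on the gene's strand, from RefSeq on build GRCr8 (the grid of the arrays was annotated on rn4, per the file headers, and no coordinate was moved between builds). They lie at chr3:31606630-31606879 (Col5a1, plus strand), chr3:133203391-133203640 (Fbn1, minus strand), chr2:185023636-185023885 (Cgn, minus strand) and chr2:33441199-33441448 (Ocln, minus strand). Capitals mark letters that match a searched motif on either strand.
Col5a1: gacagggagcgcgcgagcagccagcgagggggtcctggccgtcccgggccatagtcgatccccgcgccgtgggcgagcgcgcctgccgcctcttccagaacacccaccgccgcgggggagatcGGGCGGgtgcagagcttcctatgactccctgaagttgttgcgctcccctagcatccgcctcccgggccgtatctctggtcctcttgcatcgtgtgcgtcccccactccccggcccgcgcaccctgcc
Fbn1: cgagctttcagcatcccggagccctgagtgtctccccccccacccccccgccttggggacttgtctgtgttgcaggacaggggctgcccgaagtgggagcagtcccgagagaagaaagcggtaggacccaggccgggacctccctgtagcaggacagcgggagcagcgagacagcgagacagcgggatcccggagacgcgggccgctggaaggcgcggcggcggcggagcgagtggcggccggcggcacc
Cgn: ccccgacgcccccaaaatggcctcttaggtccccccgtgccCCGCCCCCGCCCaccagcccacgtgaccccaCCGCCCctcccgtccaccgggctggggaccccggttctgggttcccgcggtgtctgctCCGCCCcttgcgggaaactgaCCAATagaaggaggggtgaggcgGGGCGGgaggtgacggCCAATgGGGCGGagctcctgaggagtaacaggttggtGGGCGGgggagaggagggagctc
Ocln: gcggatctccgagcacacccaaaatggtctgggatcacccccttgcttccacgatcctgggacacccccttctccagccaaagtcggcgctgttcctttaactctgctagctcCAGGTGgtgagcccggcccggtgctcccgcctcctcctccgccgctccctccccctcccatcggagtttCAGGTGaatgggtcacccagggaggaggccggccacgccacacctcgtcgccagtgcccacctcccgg

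The motifs searched on both strands were AP-1 (TGANTCA), the GC box of SP1 (GGGCGG), the TATA box (TATAAA), the CCAAT box (CCAAT), an E-box (CACCTG) and the TEAD site (GGAATG), and matches of different motifs may overlap. The promoter of Col5a1 held 1 GC box, 127 bases before the start, and that of Fbn1 held no match. The promoter of Cgn held 7 GC boxes and 2 CCAAT boxes, and that of Ocln held 2 E-boxes, 137 and 68 bases before the start. Of the 33469 promoters in the table, 6.34% held AP-1, 30.5% the GC box, 12.9% the TATA box, 34.0% the CCAAT box, 15.9% the E-box and 12.1% the TEAD site. That set was not limited to genes with a single entry, whereas the list members were. Of 7 interstitial matrix genes with a single entry, 0 held AP-1, 2 the GC box, 3 the TATA box, 2 the CCAAT box, 2 the E-box and 1 the TEAD site. Of 19 junction genes with a single entry, 2 held AP-1, 12 the GC box, 2 the TATA box, 5 the CCAAT box, 10 the E-box and 0 the TEAD site. A match of letters is a description of the window.

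Other epithelial and progenitor genes lay on the same side as the junctions. Of 24 progenitor and biliary markers tested, 6 were lower at an unadjusted p under 0.05 and 1 higher, with a median of -0.73. The shares of all genes, here and for the keratins below, were 4.83% lower and 7.34% higher. Epcam, an adhesion protein of hepatic progenitors, was at 1.05, 0.66 and -0.01 on LN111 and at 1.78, 1.24 and 1.89 on Mat (difference -1.07, SE 0.33). Sox9, a transcription factor of the biliary lineage, was at -1.33, 0.20 and -1.37 on LN111 and at -0.04, 0.34 and 0.10 on Mat (difference -0.96), and the LN111 value of replicate 2 lay above 2 of the Mat values. The 4 probes of Sox9 gave differences from -0.96 to -0.04. Onecut1, a transcription factor of early liver and bile duct development, differed by -1.43 and Krt19, the biliary keratin, by -0.80 with an interval of -2.94 to 1.34. Without LN111 replicate 3, 3 of 24 were lower (median -0.49), and within the second slide 1 (median -0.32). Of 8 keratins tested, of which Krt7 and Krt19 are also on the progenitor list, 2 were lower at an unadjusted p under 0.05, Krt8 by -0.74 and Krt20 by -0.99, and 0 higher, with a median of -0.56. Again 2 were lower without LN111 replicate 3 (median -0.37), and within the second slide 0 (median -0.33). Krt18, the partner of Krt8, was at 6.31, 6.41 and 5.93 on LN111 and at 6.29, 6.15 and 6.64 on Mat and was held within 1.5-fold (-0.57 to 0.28), although its other probe gave -0.80.

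**Figure D3:**
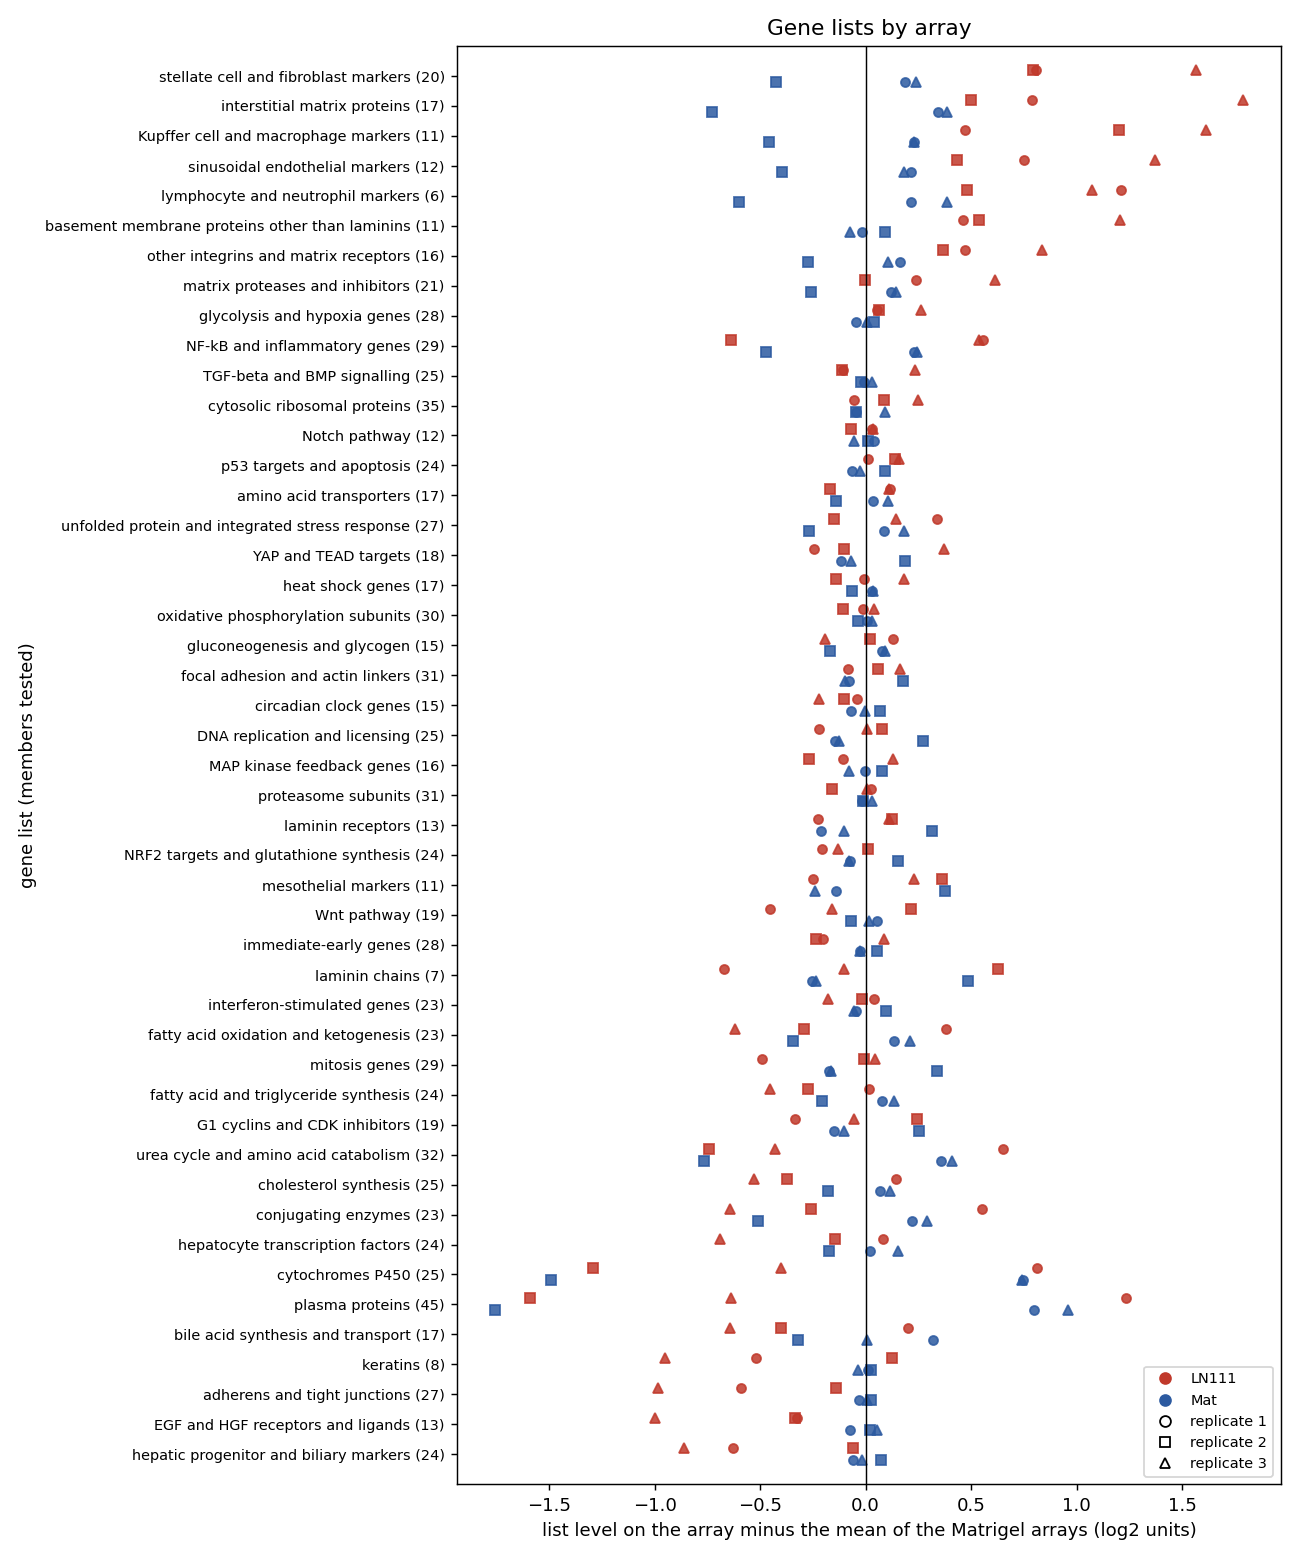
Level of each gene list on every LN111 and Mat array, as the median over its tested members minus the mean of the Matrigel arrays, in log2 units, with the number of members in brackets. Stellate and interstitial matrix lists lie at the right end and progenitor and junction lists at the left, LN111 replicate 3 lies farthest out in many of them, and hepatocyte lists spread as widely within a coating as between coatings.

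Of 13 receptors for laminin tested, 0 passed an unadjusted p of 0.05 in either direction and the median was -0.07. Only 5 (38.5%) were held within 2-fold, against 65.6% of all genes, so most were not shown to be equal. With the replicate number as a block some passed in each direction, as given below. Itgb1, the beta-1 integrin, was at 3.38, 3.67 and 3.59 on LN111 and at 3.40, 3.56 and 3.31 on Mat (difference 0.12, interval -0.20 to 0.44). Dag1, dystroglycan, was at 3.05, 3.27 and 3.39 on LN111 and at 3.28, 3.36 and 3.28 on Mat (difference -0.07, interval -0.38 to 0.23), although 1 of its 3 probes gave 0.98. Both genes were held within 1.5-fold by the probe used. The alpha chains of the main laminin integrins varied more: Itga6 was at -1.96, -0.97 and -2.41 on LN111 and at -1.04, -0.47 and -1.24 on Mat (difference -0.86, interval -1.77 to 0.05), and Itga3 differed by -0.54 (-1.60 to 0.53).

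Receptors for other matrix proteins had a median of 0.43 over 16 tested, with 3 higher and 1 lower at an unadjusted p under 0.05, against 7.34% and 4.83% of all genes. Leaving out LN111 replicate 3 gave 2 higher and 1 lower (median 0.23), and within the second slide 1 higher and 1 lower (median 0.29). Itga11, a collagen-binding integrin chain, was at -3.15, -2.12 and -2.49 on LN111 and at -4.62, -3.99 and -4.23 on Mat, with no overlap (difference 1.70, SE 0.32). Itgb6, an epithelial integrin chain, was at -3.25, -3.68 and -3.89 on LN111 and at -2.02, -2.91 and -2.16 on Mat (difference -1.24). Itga5, of the fibronectin receptor, differed by 0.72 and Itgav by 0.51. Of 31 genes of focal adhesions and actin linkage, 23 were held within 2-fold beside 65.6% of all genes, with 4 higher and 1 lower at an unadjusted p under 0.05 and a median of -0.01. Of the 31, 2 were higher and 1 lower without LN111 replicate 3, and 0 and 0 within the second slide. Integrin-linked kinase (Ilk) had an interval of -0.31 to 0.28, the scaffold Git1 of -0.26 to 0.25 and the kinase Rock1 of -0.49 to 0.06. Parva, parvin-alpha, which binds Ilk, differed by 0.98, the cysteine-rich protein Csrp1 by 0.79, filamin A (Flna) by 0.60 and talin-2 (Tln2) by -0.36.

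Immediate-early genes, are induced by serum and growth factors within minutes. Of 28 tested, 7 were lower on LN111 at an unadjusted p under 0.05 and 0 higher, against 4.83% and 7.34% of all genes, with a median of -0.12. There was no overlap for 8, all lower, and 18 were held within 2-fold, against 8.18% and 65.6% of all genes. Srf, the serum response factor, was at 0.59, 0.47 and 0.75 on LN111 and at 1.14, 1.46 and 1.13 on Mat (difference -0.64, SE 0.16). Jun differed by -0.64, Btg2, an antiproliferative gene, by -0.57 and Myc by -0.52 (interval -0.93 to -0.11). Maff, Ier5 and Fosb had the narrowest intervals, of -0.39 to 0.18, -0.32 to 0.28 and -0.49 to 0.40. Without LN111 replicate 3, 6 of 28 were lower (median -0.21), and within the second slide 2 of 29 (median -0.29).

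Targets of YAP and TEAD, the transcription pair that responds to cell shape and tension, did not share a direction. Of 18 tested, 3 were higher and 3 lower at an unadjusted p under 0.05, against 7.34% and 4.83% of all genes. Their median was 0.02, and without LN111 replicate 3 0 were higher and 5 lower, with a median of -0.12. Within the second slide 0 were higher and 1 lower (median 0.12). Ankrd1, a strongly responding target, was at -2.22, -0.27 and -0.62 on LN111 and at 1.22, 2.11 and 1.16 on Mat (difference -2.53, SE 0.53). The groups did not overlap, and the lowest LN111 array was replicate 1. Ccn2, connective tissue growth factor, differed by -0.92 and Ajuba, a junctional LIM protein, by -0.56, while Ptpn14 differed by 0.31. Yap1 itself was held within 1.5-fold (-0.21 to 0.30).

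Among 13 receptors and ligands of the EGF and HGF pathways, 4 were lower and 2 higher at an unadjusted p under 0.05. The shares of all genes were 4.83% and 7.34%, and the median of the 13 was -0.63. Beside Tgfa, the HGF receptor Met differed by -0.75 and the EGF-family ligand Nrg1 by -0.75. Egf was higher by 0.59 and was well above background on 2 of 3 arrays in each group. Egfr, the receptor itself, was held within 1.5-fold (-0.51 to 0.37). Without LN111 replicate 3, 1 was lower and 1 higher (median -0.40), and within the second slide 2 lower and 1 higher (median -0.62). Of 25 genes of TGF-beta and BMP signalling, 3 were higher and 2 lower (7.34% and 4.83% of all genes), with a median of 0.11. Of these, 3 were higher and 1 lower without LN111 replicate 3 (median -0.015), and within the second slide 0 and 0. Ltbp1, which holds latent TGF-beta in the matrix, was at -1.80, -2.20 and -1.09 on LN111 and at -2.66, -3.15 and -2.75 on Mat (difference 1.16, SE 0.28). Bmp6 differed by 1.56, and the BMP-responsive Id2 and Id1 by -0.92 and -0.73.

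**Figure D4:**
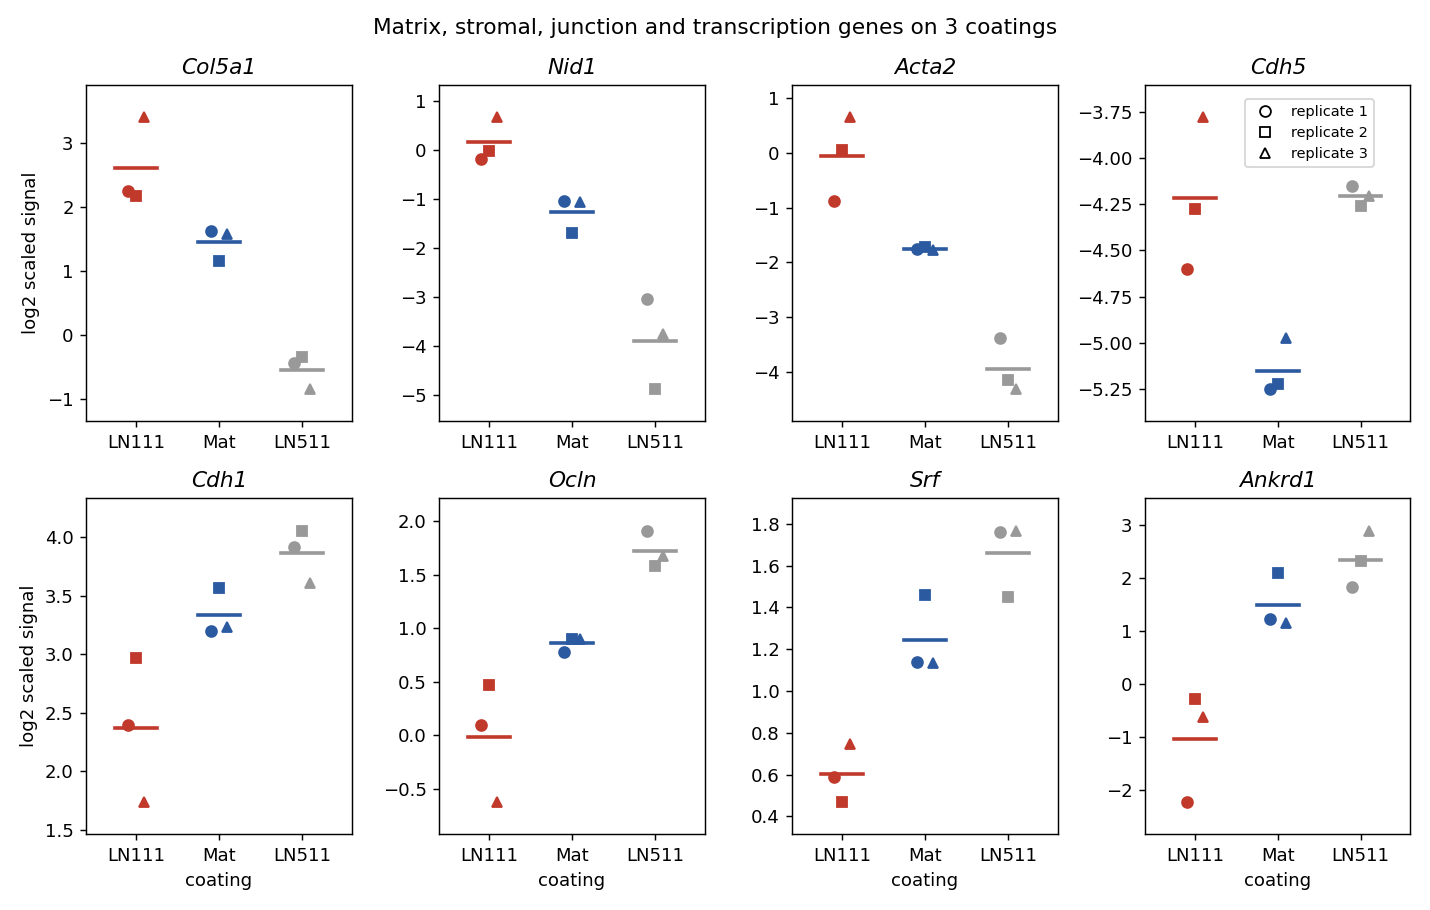
Log2 scaled signal of Col5a1, Nid1, Acta2, Cdh5, Cdh1, Ocln, Srf and Ankrd1 on each array of the 3 coatings, with a bar at the mean of 3. The first 4 genes lie higher on LN111 than on Mat and the last 4 lower. In Col5a1, Nid1 and Acta2 the LN511 arrays lie below the Mat arrays.

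Housekeeping complexes were held equal. All 30 oxidative phosphorylation subunits tested were within 2-fold and 26 within 1.5-fold, with a median of 0.01, against 65.6% and 32.7% of all genes. Of 35 ribosomal proteins 34 were within 2-fold, and of 31 proteasome subunits 30. The proteasome exception rested on LN111 replicate 3: the ATPase gene Psmc3 was at 1.26, 1.00 and -2.49 on LN111 and at 1.11, 1.20 and 1.18 on Mat. Without that array, 35 of 35 ribosomal proteins and 31 of 31 proteasome subunits were within 2-fold. These lists are bright, and 80% of genes above the 75th percentile were held as well.

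Stress and cell cycle lists held both equal and unresolved genes, and their shares within 2-fold stand beside 65.6% of all genes. Of 17 heat shock genes 15 were within 2-fold, with a median of 0.01. Hsf1, the heat shock transcription factor, differed by -0.04, Hspa4l by -0.65 and the small heat shock protein Hspb1 by 0.61. Of 27 genes of the unfolded protein and integrated stress response 20 were within 2-fold and 0 passed an unadjusted p of 0.05. Of 25 DNA replication genes 20 were within 2-fold, 0 passed, and the median was -0.04. Of 29 mitosis genes 16 were within 2-fold, with a median of -0.18 and 1 lower. Mki67, the proliferation antigen, differed by -0.16 (interval -0.89 to 0.58) and Ccnd1, cyclin D1, by -0.68 (-1.72 to 0.36), so neither was resolved. Of 24 genes of the p53 response 18 were within 2-fold. Fas, a death receptor, differed by 1.02 and the CDK inhibitor Cdkn1a by 0.56. Of 19 G1 cyclins and CDK inhibitors 9 were within 2-fold, and of 24 NRF2 targets and genes of glutathione synthesis 15.

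The brightest genes held within 1.5-fold included Rpl41, Krt18, Ttr, Rplp0, Myl6, Ubb, Ppia, Rps12, Rpl19, Ceacam9 and Rpl24. Ttr, the thyroid hormone carrier transthyretin, was at 6.36, 6.34 and 6.28 on LN111 and at 6.22, 5.98 and 6.52 on Mat (difference 0.09). Rplp0, a ribosomal stalk protein, was at 6.23, 6.42 and 6.59 on LN111 and at 6.18, 6.10 and 6.34 on Mat (difference 0.21). The groups overlapped in both, and Ppia, cyclophilin A, differed by 0.14. The choice of scaling acts on such genes directly: with no scaling between arrays the median of all genes was at -0.59 and Cd44, Alb and Itgb1 turned to -0.55, -0.31 and -0.48. Quantile scaling also moved these bright genes, each by more than the replicate spread, and all 11 then lay below 0, from -0.059 for Myl6 to -0.47 for Krt18, with Ttr at -0.24, Rplp0 at -0.096 and Ppia at -0.20. The direction of their small differences therefore depends on the scaling.

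**Figure D5:**
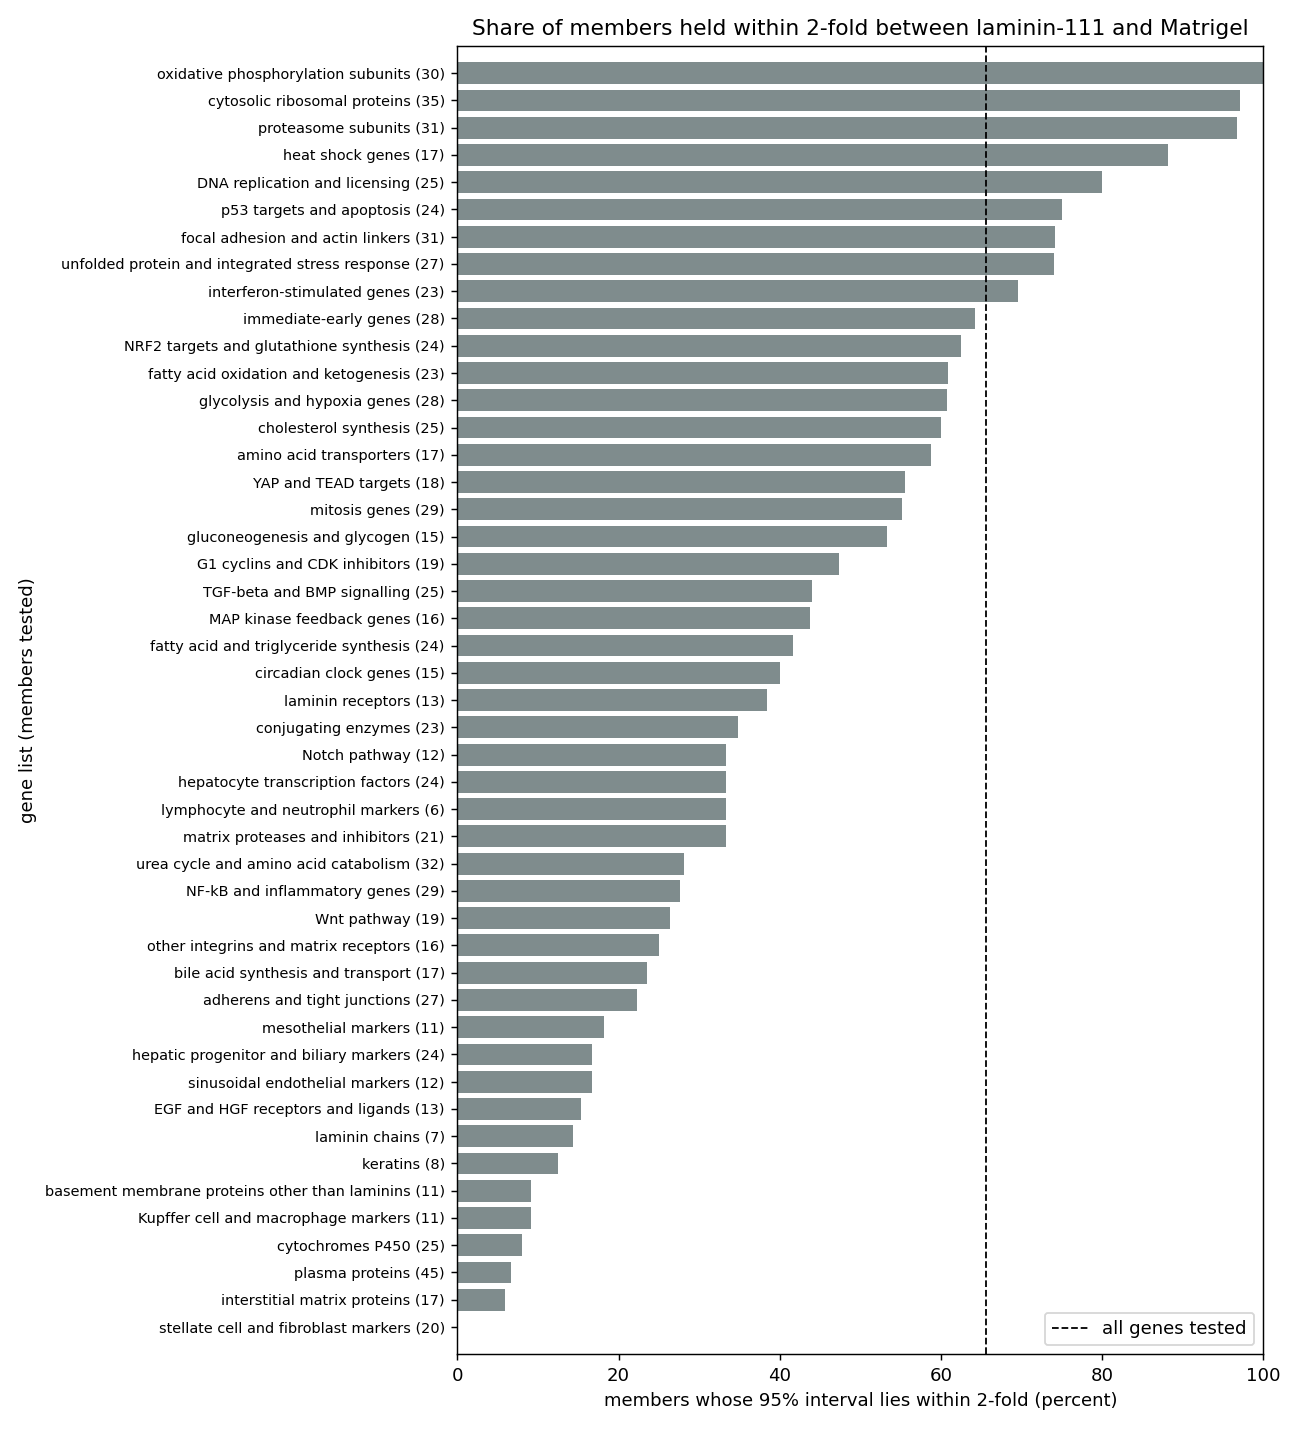
Percent of each list's tested members whose 95% interval of the difference between LN111 and Mat lies within 2-fold, with the share over all genes tested (65.6%) as a dashed line. Oxidative phosphorylation, ribosomal and proteasome lists lie at the top, and stellate, interstitial matrix, plasma protein and cytochrome P450 lists lie at the bottom.

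In the fit as reported, hepatocyte functions were neither separated nor shown to be equal. Of 45 plasma proteins tested, 0 passed an unadjusted p of 0.05 and 3 were held within 2-fold, with a median of -0.32. Their level varied more between replicates than between coatings. Set against its average over the 9 cultured arrays, the list lay at 1.53, -1.30 and -0.34 on LN111 replicates 1 to 3 and at 1.09, -1.46 and 1.25 on Mat replicates 1 to 3. Replicate 2 was low on both coatings. The fit had no term for the replicate number, so this shared variation stayed in its error. Within the second slide the median was -1.35, and with Mat replicates 1 and 3 averaged it was 0.15. The 25 cytochromes P450 tested showed the same spread, at 1.01, -1.09 and -0.20 on LN111 and 0.95, -1.29 and 0.94 on Mat, with 2 held within 2-fold and 1 higher at an unadjusted p under 0.05, Cyp2c7 at 0.98. Of 32 genes of the urea cycle and amino acid catabolism 0 passed and 9 were within 2-fold. Of 24 hepatocyte transcription factors 8 were within 2-fold, 1 was higher and 2 lower, against 65.6%, 7.34% and 4.83% of all genes. Hnf4a differed by -0.42 (interval -1.34 to 0.49), with its 3 probes between -0.42 and 1.04.

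Metabolic lists gave single genes rather than groups. In glycolysis and hypoxia 17 of 28 were within 2-fold. Hk1, a hexokinase, was at -1.11, -1.21 and -0.61 on LN111 and at -1.94, -1.83 and -1.69 on Mat (difference 0.85, SE 0.18), Pkm, pyruvate kinase, differed by 1.03 and the glucose transporter Slc2a1 by -0.54. In cholesterol synthesis 15 of 25 were within 2-fold with a median of -0.20. Of 15 clock genes 3 were lower at an unadjusted p under 0.05, against 4.83% of all genes, among them the period gene Per2 at -0.78. Their median was -0.04, and without LN111 replicate 3, 2 of the 15 were lower.

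A pair of lists was made from MH and LN511 arrays, whose values the differences between LN111 and Mat do not use, although the LN511 arrays enter the filter and the spread of the fit. Genes at least 4-fold higher in fresh mature hepatocytes than on LN511 had a median difference between LN111 and Mat of -0.08 over 1646 tested, with 99 higher (6.01%) and 54 lower (3.28%) at an unadjusted p under 0.05, against 7.34% and 4.83% of all genes. Genes at least 4-fold lower in mature hepatocytes had a median of -0.07 over 2429 tested, with 208 higher (8.56%) and 262 lower (10.8%).

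The same fit gave 3202 genes (17.9%) that passed between LN111 and LN511, 1096 higher and 2106 lower on LN111, and 1471 (8.2%) between LN511 and Mat, 1264 higher and 207 lower on LN511 (2386 in all with the replicate number as a block). These comparisons share the LN111 or the Mat arrays with the present one, so their values are only set side by side. For the interstitial matrix genes, 13 of 17 rose and 0 fell on LN111 against LN511, the median being 3.42, and the median of LN511 against Mat was -2.37. For the stellate list the medians were 3.29 and -2.14, with 13 of 20 higher on LN111 than on LN511 at an adjusted p under 0.05. For the junction list they were -1.12 and 0.48, with 13 of 27 lower and 1 higher on LN111. For the immediate-early genes they were -0.87 and 0.87, with 16 of 28 lower on LN111. Oxidative phosphorylation subunits had 0 of 30 called in either comparison, with medians of -0.06 and 0.03.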

How the data were processed

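Per the file headers, the authors read the images with Agilent Feature Extraction, whose processed signal is an intensity on a linear scale, background-subtracted, detrended and with surrogates for low values. The submitters' processing notes give version 10.7. The deposited value table repeats that intensity (largest difference 0.0072 on the log2 scale; column medians 61.8, 59.0 and 45.1 for LN111 and 85.5, 90.9 and 57.5 for Mat). It is linear, neither scaled between arrays nor centred. Control spots and outlier spots were left out here, spots of a probe were averaged, log2 was taken and each array's 75th percentile subtracted. Testing required a probe of the gene with signal well above background on every array of at least 1 cultured group, and the brightest probe stood for the gene. limma 3.58.1 in R 4.3.3 was fitted to LN111, LN511 and Mat together, with Benjamini-Hochberg adjustment, and was tested on simulated data. Noise in that simulation was independent between arrays, with no slide effect, no shared replicate variation and no noisier array. Those features of the data were thus not covered. Of the genes tested, 5755 had placeholder names.

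Named genes were the 12 of smallest p in each direction with non-overlapping groups, signal above background in the higher group and no placeholder name, a panel (of which Cyp7a1 was not tested), up to 4 members of smallest p per list, and for equality the 12 brightest genes and up to 3 list members of narrowest interval. Agrn, Lamc1, Lama5 and Id1 fall outside this rule and were named after their values were seen. Some genes that the rule selects are not reported here. The members and lists were chosen with earlier results of these data known. Deviations of same-numbered LN111 and Mat arrays correlated at 0.55, 0.73 and 0.097, and the third pair holds LN111 replicate 3, the array of high spot noise. Same-numbered LN511 and Mat arrays gave 0.59, 0.76 and 0.16. The numbers were not taken as pairs, so variation shared by numbers 1 and 2 stayed in the error. With the replicate number as a block, 12956 genes were held within 2-fold and 3693 reached an unadjusted p under 0.05. Alternatives varied scaling, background, filter, probe rule, arrays, slide and replicates.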

Additional observations from a re-analysis of the deposited data

Results flagged for a closer look

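For 22 of the 24 genes of smallest p the differences of LN111 and of LN511 from Mat had opposite signs, and the difference between LN111 and LN511 passed an adjusted p of 0.05 in limma for each of them. The genes were chosen on LN111 arrays that this difference shares, so it is no independent evidence. Of genes higher on LN111, Angpt4, Map1a, Ogdhl, Tnnc1 and Fmo1 were well above background on no LN511 array, and were at least 4.65-fold, 3.63-fold, 3.46-fold, 1.61-fold and 1.39-fold higher on LN111. Of the others, the difference LN111 minus LN511 was 3.73 for Cspg4, 2.35 for Gpx3, 1.66 for Lsp1, 1.35 for Aqp1, 1.32 for Inka2 and 1.06 for Ndrg4. Of genes lower on LN111, Lrrc2 and Ano9 were well above background on no LN111 array, and were at least 4.77-fold and 2.05-fold lower there than on LN511. For the others the difference was -3.15 for Kcnq1, -2.93 for Edn1, -2.80 for Flrt3, -2.66 for Epn3, -2.07 for Otud1, -1.99 for Spns2, -1.36 for Mex3a, -1.30 for Zbed4 and -1.30 for Tgfa. The difference between LN111 and Mat passed for none of them. For 8, Angpt4, Ogdhl, Cspg4, Map1a, Otud1, Spns2, Epn3 and Lrrc2, the difference between LN511 and Mat passed. Cspg4 was at -1.83, -2.14 and -2.79 on LN511, below every Mat array.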

How the results depend on the processing

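No gene passed between LN111 and Mat in the fit as reported, nor with the replicate block, the slide block, median scaling, normexp or other filters. A single gene passed with no scaling between arrays (1, lower on LN111), with all 12 arrays in the fit (1, higher) and with array weights (1, higher), and 37, all lower, passed within slide 2. Leaving out 1 array gave 0 to 7 genes, 0 to 6 of them higher and 0 to 1 lower. The highest count, 7, came without LN111 replicate 2, and 2 passed without LN111 replicate 1. The count at an unadjusted p under 0.05 was 4713 with no scaling, 3402 with no filter on dim probes, 3693 with the replicate block (3454 on the 6 LN111 and Mat arrays alone), 519 with slide as a block, 663 within slide 2 and 1285 to 3417 without 1 array. It was lowest without Mat replicate 1 (1285) and without LN111 replicate 3 (1297), and highest without LN111 replicate 2 (3417). Genes held within 2-fold numbered 2372 with no scaling, 8784 with slide as a block and 10485 to 12506 without 1 array. Genes called between LN111 and LN511 numbered 1977 with no scaling, 4877 with the replicate block, 1745 within slide 2 and 1848 to 4156 without 1 array. Between LN511 and Mat the counts were 10978 with no scaling, 3556 with normexp, 815 with signal required on all 9 arrays, 2386 with the replicate block, 131 with slide as a block, 86 within slide 2, 8126 with array weights and 636 to 1749 without 1 array. They were 790 with Mat replicates 1 and 3 averaged, 750 without number 2 in all groups and 2851 with the replicate block and without LN111 replicate 3, settings chosen after seeing the data, as was the block on 6 arrays. The cause was not tested. With the replicate block 2 of 13 laminin receptors were higher and 5 lower at an unadjusted p under 0.05, where the fit as reported had 0 and 0, and 12.1% of all genes were then higher and 8.50% lower.

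Some named genes near 0 changed sign. Cd44 was at -0.55 with no scaling, -0.055 with median scaling, -0.0097 to 0.18 when 1 array or number 2 was left out (lowest without LN111 replicate 3) and -0.011 when the replicate block was added without LN111 replicate 3. Alb was at -0.31 with no scaling and -0.016 with slide as a block or within slide 2. Itgb1 was at -0.48 with no scaling. Mki67 was at 0.20 with slide as a block or within slide 2, and -0.36 to 0.090 without 1 array (positive without LN111 replicate 1, and 0.076 without Mat replicate 2). With the mean of all probes Hnf4a was at 0.28 and Dag1 at 0.42, and Dag1 was at -0.15 to 0.020 without 1 array, highest without LN111 replicate 1. The median of 14 of 48 lists kept its sign in all 27 settings, and that of 18 in the 26 settings other than no scaling, which shifts the median of all genes to -0.59. For the 14 it was positive for interstitial matrix, basement membrane, stellate, endothelial, Kupffer and lymphocyte lists, and negative for junctions, keratins, progenitor markers, EGF and HGF genes, immediate-early genes, mitosis, proteasome and cholesterol lists.

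The number of arrays limits the precision, and dim genes had wider intervals. Coating and slide are partly confounded, with 1 Mat array on the slide of the LN111 arrays.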

Other observations

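Signalling and inflammatory genes not described above gave single members on either side. In the Wnt list 1 of 19 genes was higher and 2 lower at an unadjusted p under 0.05, with a median of -0.11. Of all genes tested, 7.34% were higher and 4.83% lower, and the counts of each list in this section stand beside those shares. Sp5, a direct Wnt target, differed by -1.11, Lgr4, a receptor for R-spondins, by -0.66 and Dkk3 by 0.86. In the Notch list 1 of 12 was lower, the ligand gene Dll1 at -1.39, with signal well above background on 1 of 3 LN111 arrays. In the inflammatory list 2 of 29 were higher and 3 lower, with a median of 0.12. With LN111 replicate 3 left out 0 were higher and 2 lower (median -0.03). Cx3cl1 and Cxcl10, both chemokines, differed by -0.93 and -0.99, and Il18 and Csf1 by 0.79 and 0.74.

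Interferon-stimulated genes were also mixed, with 3 of 23 higher, 2 lower and 16 within 2-fold. The shares of all genes were 7.34%, 4.83% and 65.6%. Rsad2, an antiviral enzyme, differed by -1.08 and Mx1, an antiviral GTPase, by 0.69. In the matrix protease list 3 of 21 were higher and 1 lower, with a median of 0.31. Leaving out LN111 replicate 3 gave 1 higher and 2 lower (median 0.14), and within the second slide 0 and 0 (median 0.21). Plau, urokinase, was at -2.67, -3.50 and -4.12 on LN111 and at -1.80, -2.40 and -1.92 on Mat (difference -1.39), and Mmp2, a gelatinase made by stromal cells, was at 4.08, 3.49 and 4.68 on LN111 and at 3.20, 2.27 and 3.11 on Mat (difference 1.22). The groups did not overlap in either gene. Fatty acid synthesis had 3 of 24 lower and 1 higher, with Elovl6, an elongase, at -0.65 and Gpam, which starts triglyceride synthesis, at 0.65.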
